A study of Mus musculus with 42 samples.

Results

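Mice were exposed to 0.1% (v/v) TMT (trimethylthiazoline, a sulfur-containing odorant of fox secretions) or to no odor, and the messages of odorant receptors (ORs) in their activated olfactory sensory neurons were counted. The comparison holds 6 of the 42 libraries of the series: 3 mice given 0.1% TMT and their 3 no odor littermates, all C57BL/6 mice (C57BL/6J in the study's methods) aged 20 to 22 days. Replicate numbers stand for litters, with mice of the same sex within a litter, and every intact OR in the table was included, 1088 in all. Exposure lasted 1 h, with the diluted odorant in a cassette placed with the mouse, and the percentage is its starting dilution in water (v/v). Libraries were made from dissected olfactory epithelium. The same 3 no odor mice also served as controls for 0.01% TMT. One file name in the label of the 0.1% TMT library of litter 1 says 1% TMT, while its stimulant label says 0.1% TMT, and the stimulant label was used. Without this litter 10 ORs were higher, of which 8 were among the 15 ORs described below.

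As an olfactory sensory neuron matures it settles on a single OR gene out of the repertoire, so that an OR message tells which kind of neuron it came from. Ribosomal protein S6 is phosphorylated when a neuron is active. Capturing ribosomes with an antibody against phosphorylated S6 (pS6) and sequencing the bound RNA, a method called pS6-IP-Seq, therefore raises the share of messages from neurons whose OR responded to the odorant. ORs are G protein-coupled receptors. In the mouse they fall into class I, an older group shared with fish, and the much larger class II, and they lie in genomic clusters in which neighbors are often close paralogs. In such bulk tissue, more neurons expressing an OR and more captured RNA per neuron cannot be told apart.

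At 0.1% TMT, 15 ORs were higher and 7 were lower than in no odor mice. Called ORs had an adjusted p under 0.05 in edgeR's quasi-likelihood test with litter as a block, and these calls were 1.38% (higher) and 0.643% (lower) of the 1088 ORs tested. The ORs with the strongest increases were Olfr1297, Olfr165, Olfr186, Olfr164 and Olfr1395, at 6.03 to 8.38 times their no odor level. The 15 ORs held 7.13%, 6.55% and 6.39% of all OR counts in the 3 libraries of 0.1% TMT, against 1.91%, 1.72% and 1.93% in the 3 libraries of no odor. Exact 95% binomial intervals were narrow, 6.25% to 6.54% for the lowest of the TMT shares and 1.83% to 2.03% for the highest of the no odor shares, and cover counting error only. Olfr1395 alone accounted for 2.61%, 2.43% and 2.43% of OR counts after TMT, against 0.355%, 0.252% and 0.482% without odor. The 7 ORs that were lower held 1.28%, 0.625% and 1.04% after TMT, against 2.55%, 1.52% and 1.66% without odor. Both sets, Olfr1395 included, were chosen on these same libraries, so the direction of their shares follows from that choice.

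The libraries held 63971 to 112472 OR counts after 0.1% TMT and 73372 to 77374 without odor. The median log2 fold change over all ORs was 0.00, which the scaling over ORs sets close to 0, and the quartiles were -0.26 and 0.30. Of the 1088 ORs, 21 had no count in any of the 6 libraries and 220 had under 10 counts on average, and the median OR had 30.7 counts per no odor library. The table lists ORs only. Markers of mature neurons, supporting cells or other cells of the epithelium, and the activity genes of the neurons, could therefore not be checked. The p-values rest on 3 litters.

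**Figure D1:**
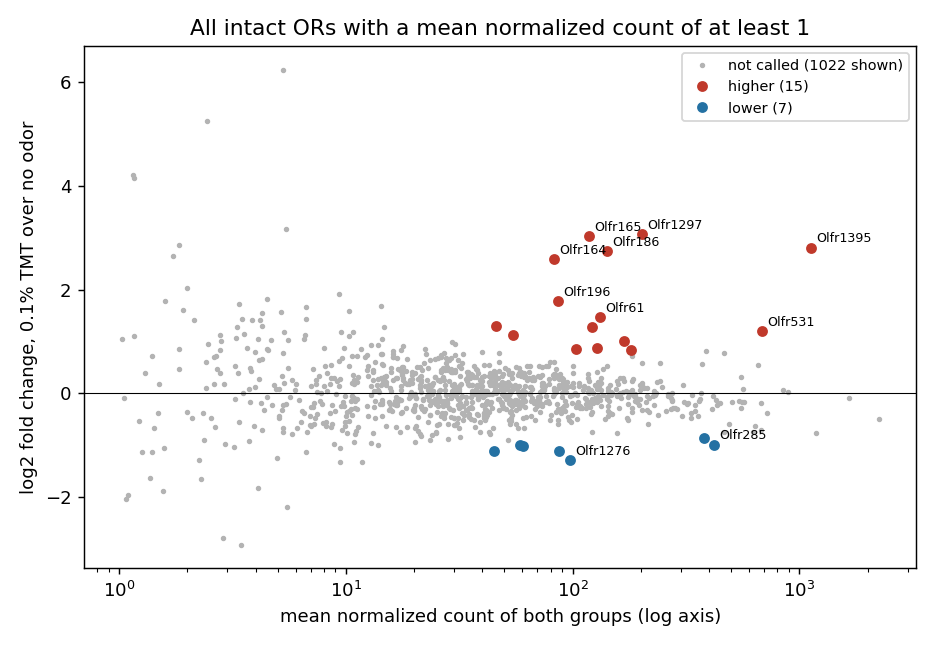
Log2 fold change of each OR, 0.1% TMT over no odor (vertical axis), against its mean normalized count in both groups (horizontal log axis), for ORs with a mean of at least 1. Red points are the 15 ORs higher, blue points the 7 lower and grey points the ORs not called, which spread widely at low counts on the left.

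Several of the called ORs were close paralogs of each other, and a stretch of their coding sequence is shown for the pairs on which the results turn. Each stretch has 90 bases, 5′ to 3′ on the coding strand, and spans the conserved motif where the third transmembrane segment meets the second intracellular loop, by which most ORs can be recognized. Capitals mark the bases at which the members of a pair differ. Sequences and positions are from the RefSeq copy of GRCm38, with coding frames from GENCODE M21. In the pair Olfr165 and Olfr164, both higher after TMT, 4 of the 90 bases differed. The stretches lie on the minus strand at chr16:19407604-19407693 and chr16:19286322-19286411.
Olfr165: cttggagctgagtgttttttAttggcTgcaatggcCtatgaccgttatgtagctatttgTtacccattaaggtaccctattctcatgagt
Olfr164: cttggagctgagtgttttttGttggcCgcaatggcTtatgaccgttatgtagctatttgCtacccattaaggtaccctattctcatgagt
In the pair Olfr1297, higher, and its closest relative Olfr1298, not called, 8 bases differed. These stretches lie on the minus strand at chr2:111621662-111621751 and chr2:111645585-111645674.
Olfr1297: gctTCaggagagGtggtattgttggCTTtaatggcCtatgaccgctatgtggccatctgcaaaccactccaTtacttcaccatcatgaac
Olfr1298: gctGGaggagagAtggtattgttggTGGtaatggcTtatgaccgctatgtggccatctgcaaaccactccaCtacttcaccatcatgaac
In the pair Olfr186 and Olfr196, both higher, 14 bases differed. These stretches lie on the minus strand at chr16:59027495-59027584 and chr16:59167731-59167820.
Olfr186: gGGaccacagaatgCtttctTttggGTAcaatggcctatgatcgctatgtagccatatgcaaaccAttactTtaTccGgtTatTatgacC
Olfr196: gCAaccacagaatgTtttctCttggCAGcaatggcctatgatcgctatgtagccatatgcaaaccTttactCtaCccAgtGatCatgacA
In the pair Olfr1352 and Olfr1353, both higher, 16 bases differed. These stretches lie on the plus strand at chr10:78984113-78984202 and chr10:78969972-78970061.
Olfr1352: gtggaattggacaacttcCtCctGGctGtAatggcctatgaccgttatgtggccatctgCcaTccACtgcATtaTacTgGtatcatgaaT
Olfr1353: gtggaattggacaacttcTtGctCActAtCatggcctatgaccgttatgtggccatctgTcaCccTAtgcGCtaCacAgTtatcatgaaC
In the pair Olfr1395 and Olfr56, both higher, 27 bases differed. These stretches lie on the plus strand at chr11:49148583-49148672 and chr11:49134518-49134607.
Olfr1395: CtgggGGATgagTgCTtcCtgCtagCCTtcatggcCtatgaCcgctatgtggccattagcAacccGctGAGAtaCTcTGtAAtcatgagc
Olfr56: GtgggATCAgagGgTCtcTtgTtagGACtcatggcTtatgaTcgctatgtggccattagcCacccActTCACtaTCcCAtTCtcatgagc

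Olfr1297 had the smallest p-value of the comparison. It had normalized counts of 385, 329 and 366 after 0.1% TMT, against 39.9, 44.6 and 43.8 without odor (normalized counts are scaled to a common library size of 79102 OR counts). The 3 TMT libraries were all far above the 3 no odor libraries, and litters differed little. The log2 fold change was 3.07 (SE 0.26, adjusted p = 4.24e-27, edgeR quasi-likelihood test). Olfr1297, called MOR248-4 in RefSeq, lies on chromosome 2 in GRCm38 (start 111615233, end 111626497, minus strand) with its coding sequence of 936 bases in a single exon. Of its 50-base stretches, 0.619% also occurred in another OR transcript, so reads of that length could rarely be assigned to a paralog.

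Olfr165 had 191, 189 and 251 normalized counts after 0.1% TMT and 28.4, 17.6 and 31.7 without odor. The log2 fold change of Olfr165 was 3.03 (SE 0.27, adjusted p = 2.01e-25). Olfr164 is the other member of its family, MOR279, and lies 122 kb away on chromosome 16. It had 93.8, 174 and 160.0 normalized counts after 0.1% TMT, against 24.2, 23.9 and 20.8 without odor. The log2 fold change of Olfr164 was 2.59 (SE 0.29, adjusted p = 6.46e-17). Both members of the family thus rose, in every litter and without overlap between the groups. Their proteins were 86.6% identical, and although they differ in few of the bases shown above, 1.07% of the 50-base stretches of Olfr165 and 0.00% of those of Olfr164 occurred in another OR transcript. Few reads of either could thus be taken for the other.

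Olfr186 had 286, 225 and 223 normalized counts after 0.1% TMT, against 42.03, 49.8 and 20.8 without odor. Its log2 fold change was 2.74 (SE 0.26, adjusted p = 1.90e-22). Olfr196, of the same MOR183 family and 141 kb away on chromosome 16, had 191, 94.6 and 118 normalized counts after TMT and 34.7, 31.1 and 48.2 without odor. For Olfr196 the log2 fold change was 1.78 (SE 0.27, adjusted p = 7.42e-09). The groups of both genes were apart in every litter, with the largest change of Olfr196 in litter 1. Proteins of Olfr186 and Olfr196 were 74.8% identical. A further member of this chromosome 16 cluster, Olfr177 of family MOR184, was 51.5% identical to Olfr186 and is described with the weaker calls.

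Olfr1395 was the most abundant of the 15 ORs after TMT. It had 2149, 1815 and 1927 normalized counts after 0.1% TMT and 276, 202 and 387 without odor, its no odor level being above that of 95.6% of ORs. Its log2 fold change was 2.81 (SE 0.32, adjusted p = 3.58e-16). The closest relative of Olfr1395 by protein sequence was Olfr56, at 62.9% identity and next to it on chromosome 11. Olfr56 had 325, 210.1 and 168 normalized counts after TMT, against 153, 140.0 and 93.0 without odor. Its groups did not overlap, but the lowest TMT value was close to the highest no odor value, and its log2 fold change was 0.84 (SE 0.24, adjusted p = 0.0229). Another relative, Olfr31 on chromosome 14, was 61.7% identical to Olfr1395. It had 183, 137 and 176 normalized counts after TMT, against 80.9, 83.0 and 107 without odor, and a log2 fold change of 0.87 (SE 0.24, adjusted p = 0.0194).

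Olfr531 was already among the highest ORs without odor, above 97.4% of ORs in rank. It had 1053, 955 and 855 normalized counts after 0.1% TMT, against 413, 409 and 420.3 without odor. The log2 fold change was 1.20 (SE 0.28, adjusted p = 0.00169), and the changes by litter were 1.35, 1.22 and 1.02 on the log2 scale (pseudocount of 1). Olfr61, in the same region of chromosome 7 and 56.2% identical to Olfr531, had 141, 226 and 214 normalized counts after TMT and 62.0, 93.4 and 54.7 without odor. For Olfr61 the log2 fold change was 1.47 (SE 0.24, adjusted p = 3.25e-07). Of its 50-base stretches, 8.93% also occurred in another OR transcript. Both ORs rose in all litters.

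Olfr1352 and Olfr1353 lie 17.7 kb apart on chromosome 10 and were 77.3% identical. Olfr1352 had 230.1, 113 and 173 normalized counts after 0.1% TMT and 90.4, 41.5 and 82.1 without odor, with litter 2 lowest in both groups. Its log2 fold change was 1.28 (SE 0.24, adjusted p = 2.47e-05). Olfr1353 had 94.96, 75.9 and 56.4 normalized counts after TMT, against 28.4, 39.4 and 33.9 without odor. For Olfr1353 it was 1.13 (SE 0.30, adjusted p = 0.0115). The pair thus rose together, by similar amounts.

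Olfr376 on chromosome 11 had 280.4, 170.4 and 226 normalized counts after 0.1% TMT, against 91.4, 124 and 116 without odor. Its log2 fold change was 1.01 (SE 0.24, adjusted p = 0.00223), with its largest change in litter 1. Olfr739 on chromosome 14 had 155, 116 and 126 normalized counts after TMT and 105, 58.1 and 62.4 without odor. The log2 fold change of Olfr739 was 0.85 (SE 0.25, adjusted p = 0.0340), the weakest of the 15 by p. Its closest relatives Olfr742, Olfr740 and Olfr743 were 90.9%, 90.6% and 89.6% identical to it. They had log2 fold changes of -0.63, -0.70 and -0.77, and none was called. Of the 50-base stretches, 7.63% of those of Olfr376 and 7.47% of those of Olfr739 also occurred in another OR transcript. Olfr177 had 112, 63.0 and 28.2 normalized counts after TMT, against 21.02, 22.8 and 29.6 without odor. It was the 1 OR of the 15 whose groups overlapped, since litter 3 showed no increase, and its log2 fold change of 1.29 (SE 0.33, adjusted p = 0.00855) came from litters 1 and 2. The other 14 did not overlap, as did 5.51% of all ORs in this direction.

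**Figure D2:**
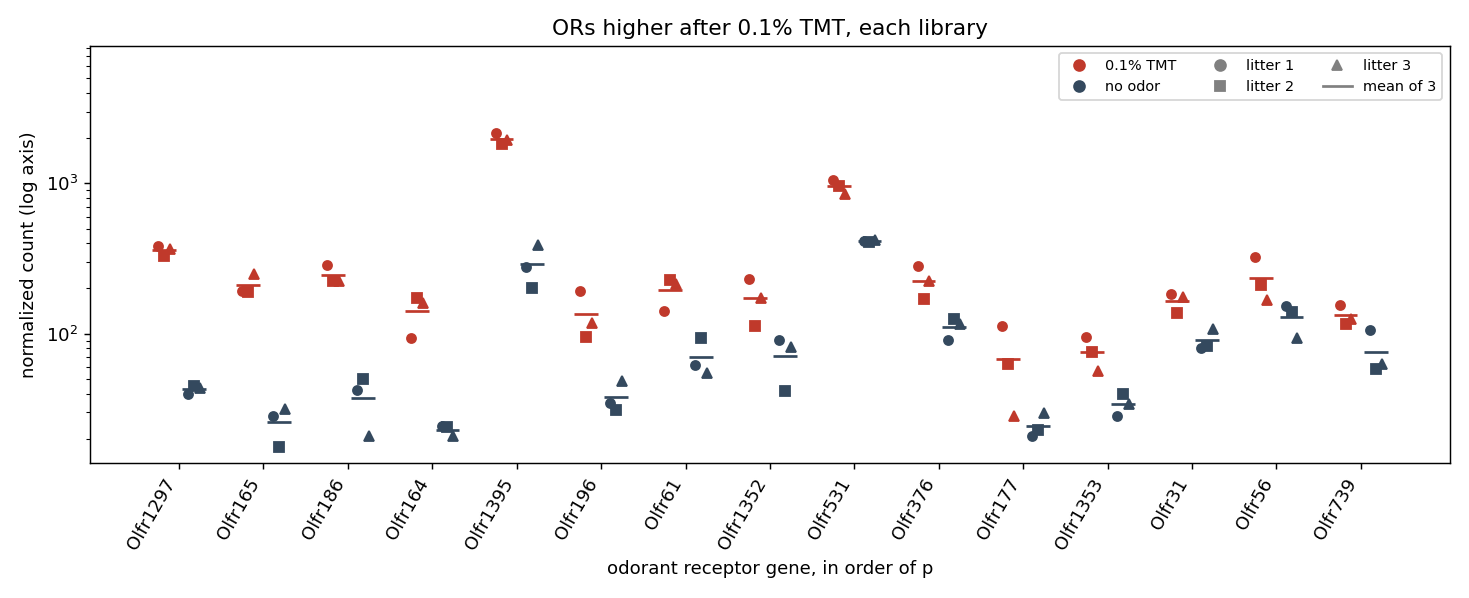
Normalized counts (log axis) of the 15 ORs higher after 0.1% TMT in each library, with 0.1% TMT in red to the left of no odor in dark blue for each OR, a symbol for each litter and a line for the mean of 3. Only Olfr177 has a TMT library (litter 3, 28.2) below a no odor library (29.6).

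The calls differed in how firmly they held. Olfr1297, Olfr165, Olfr186, Olfr164, Olfr1395, Olfr196, Olfr61 and Olfr1352 passed the threshold under all 11 alternative settings, which changed the scaling, the test, the filter or the block, or left out a litter. The other 7 lost their call in at least 1 of the settings that left out a litter. Olfr531 had an adjusted p of 0.0712 without litter 1 and 0.193 without litter 2, Olfr376 had 0.176 without litter 1, and Olfr177 had 0.837 and 0.156 without litters 1 and 2. Without litters 1, 2 and 3, in this order, the adjusted p was 0.537, 0.0644 and 0.0565 for Olfr1353, 0.198, 0.0966 and 0.103 for Olfr31, 0.176, 0.0817 and 0.192 for Olfr56, and 0.0569, 0.331 and 0.523 for Olfr739. Each of these fits kept 2 litters, and some log2 fold changes were about as large in them, at 1.11 and 1.19 for Olfr531 without litters 1 and 2, 0.94 and 0.95 for Olfr31 without litters 2 and 3, and 1.23 and 1.33 for Olfr1353 without litters 2 and 3, while that of Olfr177 was 0.69 without litter 1. With all 3 litters, DESeq2's test did not call Olfr177 (adjusted p = 0.353), Olfr1353 (0.248), Olfr31 (0.169), Olfr56 (0.102) or Olfr739 (0.289). Olfr177 was also not called with size factors over all genes (adjusted p = 0.0502) or by edgeR's likelihood ratio test (adjusted p = 0.102), nor was Olfr739 in the joint fit with 0.01% TMT (adjusted p = 0.0513). Without litter as a block, 10 ORs were higher, and all 10 were among the 15.

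Levels without odor were also available from the 3 mice that served as controls for 1% and 100% TMT and from 6 controls of acetophenone (ACT), 3 for its lower and 3 for its higher concentrations, giving 12 no odor libraries. As a share of OR counts, and without a test since these mice came from other litters, all 3 libraries of 0.1% TMT were above all 12 no odor libraries for 9 of the 15 ORs. These were Olfr1297, Olfr165, Olfr186, Olfr164, Olfr1395, Olfr196, Olfr61, Olfr531 and Olfr31. Olfr1395, for example, had 2609, 2431 and 2431 counts per 100000 OR counts after TMT, while its highest no odor library had 586. The 15 had been chosen against 3 of these 12 libraries, and the share over all ORs was not computed. For Olfr739 none of the TMT libraries was above the highest no odor library. Its mean was 167 ± 18.4 per 100000 after TMT (SD, n = 3), against 94.96 ± 34.6 in the littermates, and it was 200.1 ± 24.96 in the no odor mice of the higher TMT concentrations. For most of the 15, the mean no odor level was lowest in the littermates among the sets of no odor mice. Olfr1297 had 53.8 per 100000 in the littermates, against 80.8, 93.2 and 101 in the other sets, and Olfr376 had 139, against 176 to 227. The exceptions were Olfr165, Olfr61, Olfr56 and Olfr531, the last with 521 against 340 to 503. The part of these levels in the fold changes was not tested.

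To see whether the 15 ORs also responded at other concentrations, each was examined at 0.01%, 1% and 100% TMT. The no odor mice were those that served as controls for each concentration. At 1% and 100% TMT, the exposed and the no odor mice were other animals than at 0.1% TMT, so they are measurements separate from it. The 1% and 100% TMT comparisons shared their no odor mice, so they are not independent of each other. At 1% TMT, 14 of the 15 were higher by the same test, where 4.69% of all ORs were. At 100% TMT, 12 of the 15 were higher, where 11.6% of all ORs were. The median log2 fold change of the 15 was 2.47 at 1% TMT and 2.01 at 100% TMT, against 1.29 at 0.1% TMT. The change at 1% TMT exceeded that at 0.1% in 12 of the 15, although the difference between concentrations was not tested across these sets of mice.

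The ORs fell into different courses. Olfr1297 had log2 fold changes of 2.19, 3.07, 2.72 and 2.65 from 0.01% to 100% TMT, and Olfr1395 had 1.93, 2.81, 2.43 and 2.01. For both the largest value was at 0.1%. The SEs at 0.1% and 1% TMT were 0.26 and 0.26 for Olfr1297 and 0.32 and 0.26 for Olfr1395. These changes were taken over different no odor mice, and a peak at 0.1% was not tested. Olfr376 had 0.31, 1.01, 2.65 and 2.78, and Olfr531 had 0.05, 1.20, 2.29 and 2.42, with their largest values at the higher concentrations. Olfr61 had 0.58, 1.47, 2.12 and 0.62, and Olfr56 had -0.58, 0.84, 1.59 and -0.42. Both were thus higher at 0.1% and 1% TMT but did not pass the test at 100% TMT (adjusted p = 0.124 for Olfr61 and 0.368 for Olfr56, edgeR). Olfr739 had 0.53, 0.85, -0.76 and -0.44, and was not called at 1% (adjusted p = 0.0648) or at 100% TMT (adjusted p = 0.332).

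The 0.01% TMT comparison shares its no odor mice with that of 0.1%, so their results are not independent. At 0.01% TMT, 4 ORs were higher (0.368% of those tested) and 1 was lower (0.0919%). The 4 were Olfr1297, Olfr165, Olfr1395 and Olfr186, with log2 fold changes of 2.19, 2.19, 1.93 and 1.23. Set directly against 0.01% TMT with litter as a block, 0.1% TMT gave higher values for 0.551% of all ORs. Of the 15, Olfr186 (log2 difference 1.48, SE 0.24, adjusted p = 8.23e-06), Olfr56 (1.39, SE 0.23, adjusted p = 1.12e-05), Olfr164 (1.69, SE 0.31, adjusted p = 8.18e-05), Olfr531 (1.14, SE 0.24, adjusted p = 0.00131) and Olfr196 (1.26, SE 0.29, adjusted p = 0.00508) were among them. For Olfr1297 the difference was 0.83 (SE 0.23, adjusted p = 0.0544) and for Olfr1395 it was 0.86 (SE 0.27, adjusted p = 0.151). The 15 had been chosen on the same 0.1% TMT libraries, so their differences lean toward higher values by that choice.

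**Figure D3:**
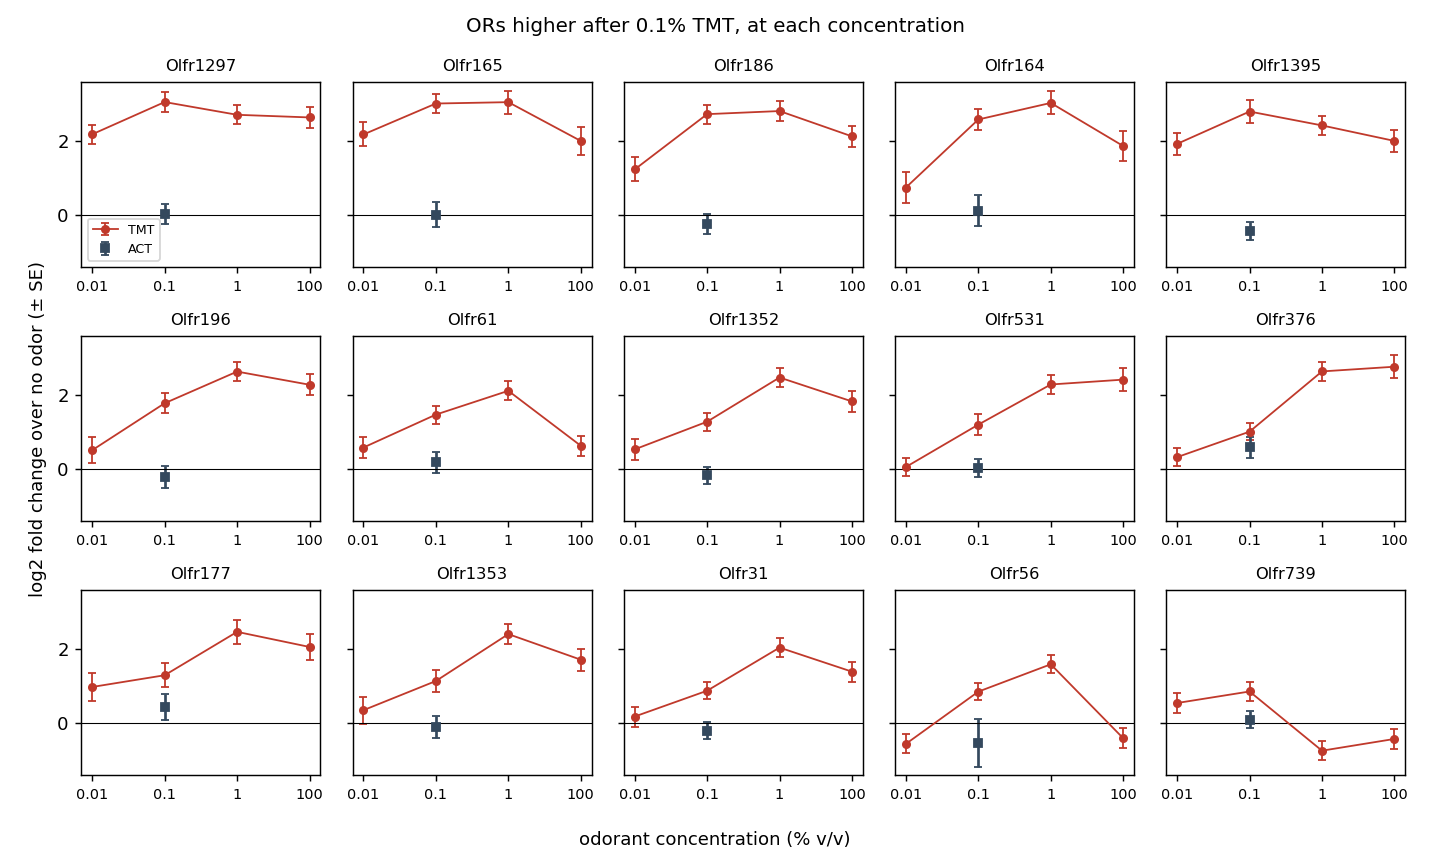
Log2 fold change over no odor with its SE for each of the 15 ORs (vertical axis) against odorant concentration in evenly spaced steps (horizontal axis), with TMT in red and 0.1% ACT as dark blue squares. Olfr1297 and Olfr1395 have their largest values at 0.1%, which was not tested against 1%. Most others have larger values at 1%, and Olfr739 has values under 0 at 1% and 100% TMT.

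At the same concentration, 0.1%, mice were also exposed to ACT, an aromatic ketone, against other no odor mice. None of the 15 passed the test at 0.1% ACT, where 0.643% of all ORs were higher. Their log2 fold changes at 0.1% ACT ran from -0.55 for Olfr56 to 0.58 for Olfr376, with a median of 0.00. In a fit of all 12 libraries, the response to 0.1% TMT exceeded that to 0.1% ACT for 8 of the 15, where 0.827% of all ORs did. The 8 were Olfr1297, Olfr165, Olfr186, Olfr164, Olfr1395, Olfr196, Olfr61 and Olfr1352. The largest log2 difference was 3.27 for Olfr1395 (SE 0.37, adjusted p = 7.27e-09) and that of Olfr1297 was 3.06 (SE 0.35, adjusted p = 7.60e-09). For Olfr376 the difference was 0.44 (SE 0.38, adjusted p = 1.00), with 386, 215 and 155 normalized counts after 0.1% ACT, against 158, 127 and 194 in its no odor mice. As with the lower concentration, these differences use the libraries on which the 15 were chosen.

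Of 7 ORs known for responses to ACT (Olfr923, Olfr983, Olfr1377, Olfr901, Olfr160, Olfr151 and Olfr145), 0 passed the test at 0.1% TMT in either direction. Over all ORs 1.38% were higher and 0.643% lower, so that few of any 7 ORs would be called. Olfr160 and Olfr151 are also known as M72 and M71. The log2 fold changes of the 7 ran from -0.49 to 0.51. Olfr151 was listed at 0 in all 6 libraries and so could not be called. The study states that Olfr151 had been misannotated and was corrected to Olfr160. At 0.1% ACT, 5 of the 7 were higher, where 0.643% of all ORs were. In the fit of both odorants these 5 had a response to TMT below that to ACT, as 0.643% of all ORs did. The difference uses the ACT libraries in which these 5 passed the test, and the study named ORs from the same libraries, so it is not independent of that choice. Olfr923 had a log2 fold change of 0.32 (SE 0.25, adjusted p = 0.951) at 0.1% TMT and a log2 difference of -3.41 (SE 0.45, adjusted p = 1.98e-06) between the odorants.

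Other ORs that the study named for TMT were not called at this concentration. Olfr506 had 39.1, 37.4 and 60.6 normalized counts after 0.1% TMT and 47.3, 48.8 and 55.8 without odor, with a log2 fold change of -0.17 (SE 0.30, adjusted p = 0.997). Olfr506 had a log2 fold change of 3.02 at 100% TMT (adjusted p = 3.23e-20). Olfr837 had 3, 1 and 7 counts after 0.1% TMT and 18, 2 and 0 without odor, too few for a change of moderate size to be detectable. Olfr837 had log2 fold changes of 4.76 at 1% TMT (adjusted p = 0.00202) and 4.50 at 100% TMT (adjusted p = 0.00665). Olfr1019, a TMT receptor known from work in mice on freezing, had 49.2, 82.9 and 79.6 normalized counts after 0.1% TMT, against 67.3, 37.3 and 67.9 without odor. The groups of Olfr1019 overlapped, and the log2 fold change was 0.30 (SE 0.28, adjusted p = 0.963).

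A close relative of a called OR was often not called, as most ORs were not. Among the 15, the closest relative by protein sequence was itself called for 6, namely Olfr165, Olfr164, Olfr186, Olfr1395, Olfr1352 and Olfr1353. Over all ORs, 1.38% were higher. Olfr165 and Olfr164 are each other's closest relative, as are Olfr1352 and Olfr1353, so both pairs enter the 6 from both sides. For the other 9 the closest relative was not called, and these relatives had a median log2 fold change of 0.10, between -0.63 and 0.79. Leaving out called relatives keeps this median near 0 in part. Olfr1298, 88.5% identical to Olfr1297, had 19.0, 29.2 and 27.5 normalized counts after 0.1% TMT, against 24.2, 28.0 and 32.8 without odor (log2 fold change -0.18, SE 0.40, adjusted p = 0.997). Olfr20, 91.7% identical to Olfr376, had a log2 fold change of -0.23 (SE 0.30, adjusted p = 0.997). Olfr541, 91.6% identical to Olfr61, had 0.40 (SE 0.24, adjusted p = 0.831). Olfr527, 92.4% identical to Olfr531, had 515, 670.0 and 575 normalized counts after TMT, against 349, 361 and 308 without odor. Its groups did not overlap, while its log2 fold change of 0.79 (SE 0.26, adjusted p = 0.107) did not pass the test.

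**Figure D4:**
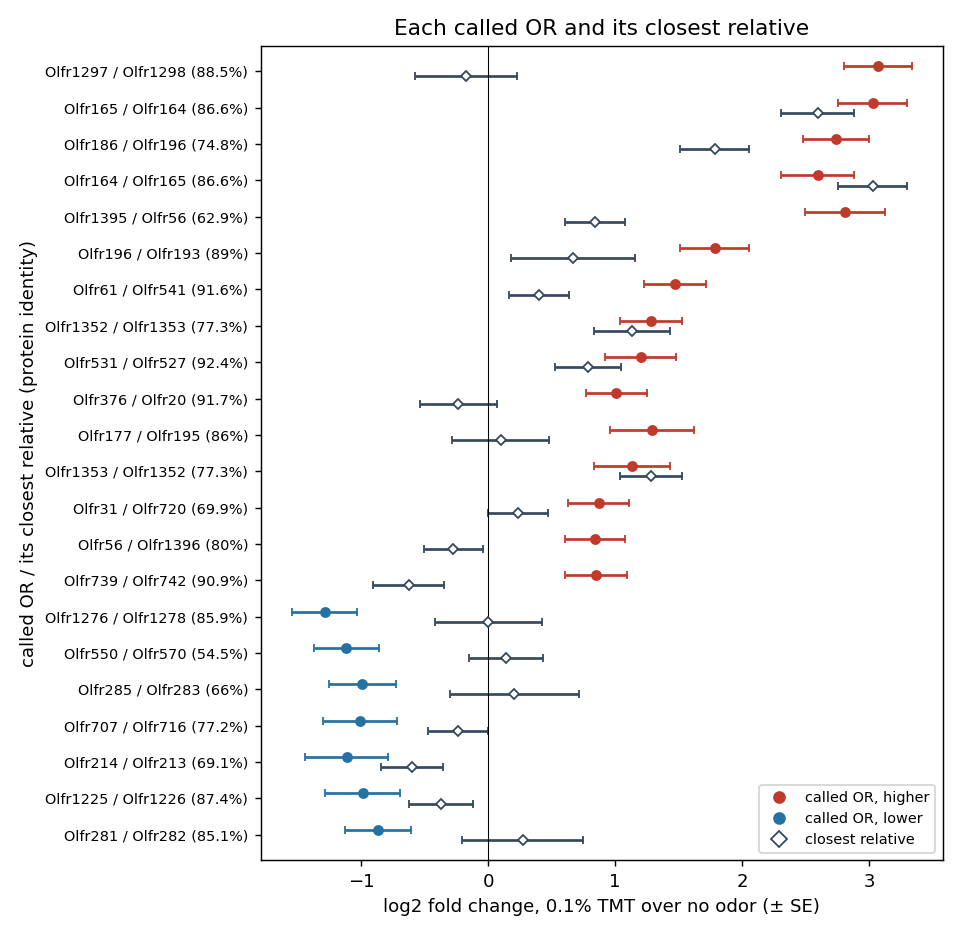
Log2 fold change with its SE (horizontal axis) of each called OR (filled circle, red for higher and blue for lower) and below it that of its closest relative (open diamond), with the protein identity of the pair in percent beside the names. The relatives of Olfr1297, Olfr376, Olfr56 and Olfr739 lie under 0, whereas Olfr165 and Olfr164 are each other's closest relative and both lie above 2.5.

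By family, both intact members of MOR279, 2 of the 7 members of MOR183, 2 of the 7 of MOR139 and 1 of the 7 of MOR184 were higher, where 1.38% of all ORs were. These families were looked at because they hold called ORs. In other families with an OR that was higher, it was a single member. This was 1 of 5 in MOR251, 1 of 10 in MOR253, 1 of 15 in MOR248 and 1 of 17 in MOR135. It was 1 of 2 in MOR274 and in MOR276, and the only member of MOR277. Members of MOR106, the family of Olfr739, were not counted. The other members of MOR183 had log2 fold changes of -0.13 to 0.61, and none was called at 0.1% TMT. Olfr187 of MOR183 had 30.2, 45.5 and 40.9 normalized counts after TMT, against 23.1, 25.9 and 39.4 without odor, with a log2 fold change of 0.40 (SE 0.36, adjusted p = 0.953), and 2.60 at 1% TMT (adjusted p = 1.02e-12). Likewise Olfr173 of MOR184 had 0.47 (SE 0.39, adjusted p = 0.953) at 0.1% TMT and 2.89 at 1% TMT (adjusted p = 6.03e-16). In MOR183, 4 members were higher at 1% TMT and 2 at 0.1%, and in MOR184 2 and 1, while MOR279 and MOR139 had 2 each at both. MOR251 and MOR253 each had 3 at 1% TMT and 1 at 0.1%, and MOR248 and MOR274 each had 2 and 1. MOR135, MOR276 and MOR277 had 1 each at both. Over all ORs the share was 4.69% at 1% and 1.38% at 0.1% TMT. ORs within 1 Mb of the 15, called ORs left out, numbered 159 and had a median log2 fold change of -0.05, against 0.00 over all ORs.

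All 15 were class II ORs, of the 948 class II ORs in the table, and 0 of the 120 class I ORs (families MOR1 to MOR42 in RefSeq) were higher. The share was 1.58% in class II and 1.38% over all ORs, at which few of 120 ORs would be called, so no difference between the classes can be read from it. Class I ORs had a median log2 fold change of 0.12, and 79 of them had a value above 0, as did 537 of all 1088 ORs. Dorsal ORs, described below, had a median of 0.13, with 250 of 407 above 0. By zone, from RNA-Seq of dorsal and ventral epithelium of mice without odor (higher in dorsal for 37.4% and higher in ventral for 37.2% of the ORs tested), 10 of the 15 were ventral, 2 were dorsal and 3 were neither. The dorsal ORs were Olfr376, with a log2 fold change of 3.47 in dorsal over ventral (adjusted p = 0.000275), and Olfr739, with 1.81 (adjusted p = 0.0103). The ventral ones included Olfr31 at -3.40 (adjusted p = 0.000503) and Olfr531 at -3.15 (adjusted p = 0.00182). Olfr1395 (-1.13, adjusted p = 0.0820), Olfr164 (-0.99, adjusted p = 0.118) and Olfr196 (-1.14, adjusted p = 0.108) were neither.

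Over all ORs the zones moved slightly in opposite directions at 0.1% TMT. Dorsal ORs had a median log2 fold change of 0.13 and ventral ORs one of -0.06. Dorsal ORs held 23.1%, 24.6% and 25.2% of OR counts after TMT, against 21.6%, 22.2% and 24.1% without odor. Ventral ORs held 60.3%, 57.0% and 57.3% after TMT, against 62.6%, 62.1% and 58.9% without odor. The dorsal share was thus higher, and the ventral share lower, after TMT in each of the 3 litters. Shares are parts of a common total. Olfr1395, of neither zone, rose to 2.61%, 2.43% and 2.43% of it, which lowers the shares of both zones. Over ORs with at least 10 counts on average, ventral ORs had median log2 changes of -0.0067, -0.12 and -0.066 in litters 1, 2 and 3. Dorsal ORs had 0.096, 0.061 and 0.097. The part of this shift between zones in the calls of single ORs was not tested. The 10 ventral ORs among the 15 rose against it.

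The 7 ORs that were lower after TMT changed less than the strongest of those that were higher, with log2 fold changes of -0.87 to -1.29. Olfr1276 on chromosome 2, in the same region as Olfr1297, had 113, 19.8 and 50.7 normalized counts after 0.1% TMT and 182, 90.3 and 126 without odor. It fell in every litter, although the TMT library of litter 1 was above the no odor library of litter 2, and its log2 fold change was -1.29 (SE 0.26, adjusted p = 7.39e-05). Olfr550, the 1 class I OR among the 22 called, had 58.1, 42.02 and 64.1 normalized counts after TMT, against 105, 99.6 and 152 without odor. Its groups did not overlap and its log2 fold change was -1.12 (SE 0.26, adjusted p = 0.00169). Of the 7, 4 did not overlap, as did 4.50% of all ORs in this direction.

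Olfr285 and Olfr281 belong to family MOR160, lie 143 kb apart on chromosome 15 and were 60.8% identical. Their coding stretches at the conserved motif differed in 21 of 90 bases, at chr15:98313144-98313233 on the minus strand and chr15:98456633-98456722 on the plus strand, with capitals for the differences.
Olfr285: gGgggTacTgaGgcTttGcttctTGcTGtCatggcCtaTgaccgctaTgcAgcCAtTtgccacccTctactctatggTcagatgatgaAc
Olfr281: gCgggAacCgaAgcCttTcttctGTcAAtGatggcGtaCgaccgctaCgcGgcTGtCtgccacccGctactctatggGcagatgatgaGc
Olfr285 had 313, 188 and 355 normalized counts after TMT, against 650.4, 575 and 444 without odor, and Olfr281 had 444, 135 and 258 after TMT, against 655, 328 and 450 without odor. The log2 fold changes were -0.99 (SE 0.26, adjusted p = 0.0138) for Olfr285 and -0.87 (SE 0.26, adjusted p = 0.0395) for Olfr281. Olfr281 was lower in each litter but its groups overlapped, with litter 2 lowest in both. The 3 other members of the family, Olfr282, Olfr283 and Olfr284, had log2 fold changes of 0.16 to 0.27. A further OR of this cluster, Olfr288, was just outside the threshold at -0.76 (SE 0.24, adjusted p = 0.0646). Per 100000 OR counts, Olfr288 had a mean of 152 after 0.1% TMT and 240 in the no odor littermates. In the other sets of no odor mice its means were 8.04, 34.9 and 68.9, all below that after TMT. Of its 50-base stretches, 29.7% also occurred in another OR transcript, so that its count is uncertain.

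Olfr1225, Olfr214 and Olfr707 shared a pattern in which 1 no odor library was high. Olfr1225 had 43.6, 26.8 and 41.6 normalized counts after TMT, against 133, 56.0 and 50.4 without odor. Olfr214 had 32.4, 22.2 and 25.4 after TMT, against 112, 39.4 and 39.4 without odor. Olfr707 had 48.0, 32.7 and 31.7 after TMT, against 147, 33.2 and 71.1 without odor. Litter 1 was the high no odor library for all of these. Log2 fold changes were -0.99 (adjusted p = 0.0395) for Olfr1225, -1.11 (adjusted p = 0.0357) for Olfr214 and -1.01 (adjusted p = 0.0340) for Olfr707 in edgeR. Without litter 1 the adjusted p was 0.816 for Olfr1225, 0.817 for Olfr214 and 0.817 for Olfr707. For Olfr707, 36.4% of the 50-base stretches also occurred in another OR transcript, mainly of pseudogenes, so that its count is uncertain.

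**Figure D5:**
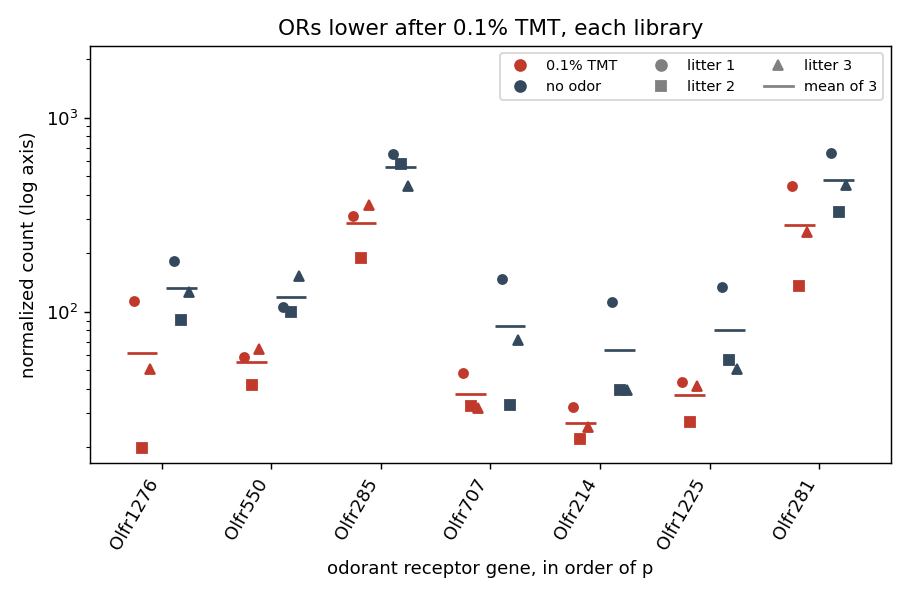
Normalized counts (log axis) of the 7 ORs lower after 0.1% TMT in each library, with 0.1% TMT in red to the left of no odor in dark blue, a symbol for each litter and a line for the mean of 3. The no odor library of litter 1 (circle) is the highest for Olfr1225 (133), Olfr214 (112) and Olfr707 (147), and the groups of Olfr1276, Olfr707 and Olfr281 overlap.

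The lower calls held less firmly than the higher ones. None of the 7 passed the threshold under all 11 alternative settings, and single ORs passed in 2 to 10 of them. Without litter as a block, 1 OR was lower, Olfr550. Scaled by size factors over all genes, 2 were lower, Olfr1276 and Olfr550. Without litter 2, the adjusted p was 0.0660 for Olfr1276 and 0.912 for Olfr285 and Olfr281. Without litter 3 it was 0.182 for Olfr550 and Olfr281, and without litter 1 it was 0.0741 for Olfr285.

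The no odor levels of the 7 also varied between the sets of control mice. In 6 of the 7, the mean no odor level was highest in the littermates used here among the 4 sets of no odor mice. Olfr1276 had a mean of 75.9 ± 56.1 per 100000 OR counts after 0.1% TMT and 167 ± 61.1 in the no odor littermates. In the other no odor mice it had 18.3 ± 13.1 (controls of 1% and 100% TMT), 47.8 ± 33.9 (controls of 0.01% and 0.1% ACT) and 42.6 ± 17.6 (controls of 1% and 100% ACT; SD, n = 3 each), all with means below that after TMT. All 3 TMT libraries were below all 12 no odor libraries for 2 of the 7, Olfr550 and Olfr1225, and for Olfr1276, Olfr285, Olfr707 and Olfr214 none was. Here too 3 of the 12 libraries were those used for the calls, and the share over all ORs was not computed. Olfr550 had 70.5, 56.3 and 80.9 per 100000 after TMT, while its lowest no odor library had 98.6.

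None of the 7 was called in either direction at 1% or at 100% TMT, where 0.184% and 3.31% of all ORs were lower. Their log2 fold changes ran from -0.51 to 0.61 at 1% TMT and from -0.79 to 0.68 at 100% TMT, with medians of 0.10 and 0.01. The value nearest to that at 0.1% was that of Olfr550 at 100% TMT, -0.79 (adjusted p = 0.0594, edgeR). At 0.01% TMT, which shares the no odor mice, Olfr1276 was the 1 OR that was lower (log2 fold change -1.40, adjusted p = 0.000651). By zone, Olfr1276, Olfr285, Olfr214 and Olfr281 were ventral, Olfr550 was dorsal and Olfr707 and Olfr1225 were neither. The ventral ones are themselves counted in the ventral share described above, so their direction is not independent of its shift.

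At an unadjusted p under 0.05 there were 40 ORs with higher and 38 with lower values, the called ORs included, together 7.17% of the ORs tested. Of these, 25 with higher and 31 with lower values were not called. The ORs next to the threshold included Olfr110, with 521, 490.3 and 469 normalized counts after 0.1% TMT, against 235, 298 and 305 without odor. Its groups did not overlap, and its log2 fold change was 0.83 (SE 0.26, adjusted p = 0.0646). Olfr110 was higher at 1% TMT (1.58, adjusted p = 1.11e-08) and at 100% TMT (1.72, adjusted p = 1.79e-07). Of its 50-base stretches, 31.8% also occurred in Olfr111, so that its reads cannot be fully told from those of this neighbor. Olfr1 and Olfr849 had log2 fold changes of -0.74 (adjusted p = 0.0784) and -0.91 (adjusted p = 0.104) with no overlap between the groups. Olfr176 had 45 counts in the TMT library of litter 3 and 0 in the other 5 libraries, so that 1 library decided its value, and it was not called (adjusted p = 0.0784).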

How the data were processed

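Reads of 50 bases from pS6-IP-Seq libraries were mapped by the authors with STAR and quantified with RSEM on GRCm38, with an OR annotation that includes untranslated regions. The deposited tables give these expected counts, rounded to whole numbers by the authors, for 1088 intact ORs (1087 for the zones). The deposited mean signal per group is the authors' mean of counts over size factors, from which size factors over all genes were recovered. Columns of the authors' fold changes, p-values and FDR were not used.

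Counts were tested with edgeR 4.0.16 in R 4.3.3 (glmQLFit, robust, and glmQLFTest), with TMM scaling over ORs, no filter, litter as a block, and Benjamini-Hochberg adjustment over all ORs. The SE is the log2 fold change divided by the square root of F and restates the test. Alternatives used DESeq2 1.42.0, other scalings, a filter, no block, a joint fit of 9 libraries with 0.01% TMT, or left out a litter. Litters follow the study's statement that littermates formed each replicate. Deviations of littermates from their group means correlated at 0.11, 0.13 and 0.08, against -0.14 to 0.02 for other pairs (868 ORs with at least 10 counts on average).

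Protein identity came from global alignment (BLOSUM62, Biopython 1.88) of GENCODE M21 coding sequences, which 1083 ORs had, and family names from RefSeq. Named ORs were all called ORs, the 5 with the smallest p outside the threshold, ORs the study named for TMT, Olfr1019, ORs known for ACT, and closest relatives. These members and lists were chosen with earlier results of these data known. The OR totals of 63971 to 112472 counts per library limit precision for the 220 ORs under 10 counts. The method was tested on simulated data with changes larger than those of the weaker calls and no differences between litters. That run therefore does not bear on the weaker calls or on the litter block.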

Additional observations from a re-analysis of the deposited data

How the results depend on the processing

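Main counts were 15 ORs higher and 7 lower, and the number of these same ORs called is given after each count. ORs higher numbered 15 with DESeq2 size factors (15 shared), 17 without TMM (15), 15 with size factors over all genes (14), 12 by DESeq2's test (10), 16 by edgeR's likelihood ratio test (14), 15 after a filter on low counts (15) and 15 in the joint fit of 9 libraries (14). With a litter left out the counts were 9 to 12, of which 8 to 11 were among the 15. Without the replicate block, 10 were higher (10 shared) and 1 was lower (1). ORs lower numbered 8 with DESeq2 size factors (7 shared), 8 without TMM (7), 2 with size factors over all genes (2), 4 by DESeq2's test (4), 5 by the likelihood ratio test (4), 4 after the filter (4) and 4 in the joint fit (4). With a litter left out the counts were 2 to 7, of which 2 to 3 were among the 7. The cause was not tested. DESeq2 gave an adjusted p for 508 ORs only. The scalings moved the median log2 fold change over all ORs by at most 0.06. Of ORs that were not called, the log2 fold change of Olfr160 was -0.0067 without the replicate block and -0.27 to 0.30 with a litter left out, that of Olfr837 was -1.97 to 1.44, and that of Olfr1019 was -0.092 to 0.65. Without the replicate block in the zone comparison, Olfr165 was no longer ventral (adjusted p = 0.0638), and Olfr1395 (0.0242) and Olfr164 (0.0393) became ventral. With 63971 to 112472 OR counts per library, changes of ORs under 10 counts were hardly detectable.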
